A study of Homo sapiens with 15 samples.

Results

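The 60 genes described here make the machinery that builds ribosomes: proteins of the small nucleolar ribonucleoproteins, factors that assemble the precursors of the 40S and 60S subunits, and subunits and initiation factors of RNA polymerase I. They were chosen by name, from a list drawn up with earlier results of these data in view, and all 60 were found among the 19966 genes of the table. A level filter of 1 FPKM (reads per length of gene and depth of library) in at least 3 libraries left 59 of them, and 11133 genes in all, for testing. RNA was sequenced from 293T cells, a human embryonic kidney line transformed by adenovirus DNA that also carries the large T antigen of SV40. One group carried a knockdown of SRSF1 by short hairpin RNA and was held without serum for 12 h (3 libraries, called knockdown). The next was wild type and held without serum for the same 12 h (3 libraries, called starved), and the last was wild type and kept in serum (0 h of starvation, 3 libraries, called fed). The series also lists SRPK1 and UPF1 knockdowns in starved cells, 6 samples that were not analysed here. The labels name no library with a non-targeting hairpin, so the knockdown cells differ from the starved cells both in SRSF1 and in carrying a hairpin. They do not say whether the replicates were separate cultures, so p-values measure the spread between these libraries, which may be technical.

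Ribosome synthesis starts in the nucleolus, where RNA polymerase I transcribes the long precursor of the 18S, 5.8S and 28S rRNAs. Box C/D and box H/ACA ribonucleoproteins modify this precursor, the small subunit processome folds and cuts it around the 18S part, and separate sets of factors then carry the pre-60S and pre-40S particles through maturation and export. Serum and growth factors are known to stimulate this pathway, and the starvation comparison asks what became of the mRNAs of its factors when serum was removed. The knockdown comparison asks how the same mRNAs stood in starved cells with less SRSF1, an SR protein that binds exons and guides splicing.

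The libraries held 11775367 to 15231651 reads in genes. The deposited values are read counts divided by 1 size factor per library, here called normalized counts. SRSF1 itself stood at 2409 ± 40.3 normalized counts in knockdown cells, 3246 ± 85.4 in starved cells and 2515 ± 63.5 in fed cells (SD, n = 3 each), so its log2 fold change in knockdown against starved cells was -0.43 ± 0.07 (SE, limma adjusted p = 0.000797), and that in knockdown against fed cells was -0.06 ± 0.07 (adjusted p = 0.593). Of 4 epithelial genes looked up for the labelled cell type, KRT18 ranged over 540.4 to 645, 431 to 596 and 478 to 565 normalized counts in knockdown, starved and fed libraries, KRT8 over 1397 to 1997, 653 to 837 and 1314 to 1607, and CDH1 over 77.9 to 91.2, 82.5 to 122 and 136 to 146, while EPCAM stayed between 19.8 and 36.6 in all 9. The mesenchymal gene VIM ranged over 3157 to 4271, 1658 to 2158 and 2616 to 3015. KRT8, CDH1 and VIM were thus lower in every starved than in every fed library, and the part of this in the results was not tested. Summed markers of other cell types were low for hematopoietic cells (at most 67.1, with 2 of 6 markers at 0 in every library). For endothelium they came to 9.73 to 114 in knockdown, 5.51 to 18.0 in starved and 9.75 to 27.9 in fed libraries. For fibroblasts they came to 398 to 431 in knockdown, 217 to 271 in starved and 462 to 498 in fed libraries; their part in the results was not tested.

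In starved cells most mRNAs of this machinery stood above their level in fed cells, and a small group stood below it. The test called 35 of the 59 genes higher and 6 lower in starved than in fed cells, against 21.5% of all tested genes higher and 21.5% lower; 59.3% of the 59 were higher and 10.2% lower, and 69.5% were called either way, beside 43.1%. The lowered genes were WDR75, RIOK2, UBTF, BMS1, WDR12 and NVL, and the largest rises were in PPAN, UTP20, RRP12, MDN1 and RPF2. The median log2 fold change of the 59 genes was 0.32, beside 0.03 over all tested genes. Starved and fed libraries did not overlap in 43 of the 59 genes, 37 of them higher and 6 lower in starved cells, beside 30.6% and 28.7% of all tested genes. With TPM scaling 20 of the 59 were called higher and 7 lower. All tested genes then held 1402 and 2731 in place of 2396 and 2399. Without fed replicate 2 the 59 genes held 23 rises and 5 falls, beside 1771 and 1887 over all tested genes. In knockdown against starved cells the picture was the other way round, with 33 of the 59 genes lower and 6 higher (55.9% and 10.2%), beside 24.1% and 22.6% of all tested genes. Calls either way took in 66.1% of the 59 and 46.7% of all tested genes. The median there was -0.34, beside -0.04 over all tested genes. Knockdown and starved libraries did not overlap in 42 of the 59 genes, 6 higher and 36 lower in knockdown cells, beside 24.8% and 26.2% of all tested genes. In knockdown against fed cells 5 genes were higher and 6 lower, 8.47% and 10.2% of the 59, which is near the 9.43% and 9.49% of all tested genes. Either way 18.6% of the 59 and 18.9% of all tested genes were called. Without overlap of knockdown and fed libraries there were 8 higher and 17 lower, beside 20.1% and 21.1% of all tested genes. This comparison depended on single libraries, in the list and over all tested genes. Without fed replicate 1 the list held 1 gene higher and 0 lower. All tested genes then held 453 and 385, in place of 1050 and 1056. These 3 comparisons share libraries, the starved ones standing in the first and second, so they are not independent of each other, and each is given with its own values.

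Together the 60 genes took 1.17%, 1.13% and 1.23% of all normalized counts in the knockdown libraries, 1.37%, 1.27% and 1.37% in the starved libraries and 1.28%, 1.24% and 1.26% in the fed libraries. The 3 knockdown libraries lay below all others, and starved replicate 2 lay within the range of the fed libraries. Per unit of length the 59 genes were abundant, with a median of 26.5 FPKM over the 9 libraries beside 7.43 FPKM for all tested genes. Since every library was scaled to the others by a size factor, a change shared by all mRNAs of a cell would not be seen here. The fold changes are relative to the other genes. The heat map of single libraries shows the lowered genes as a few dark lines among genes that were mostly raised.

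**Figure D1:**
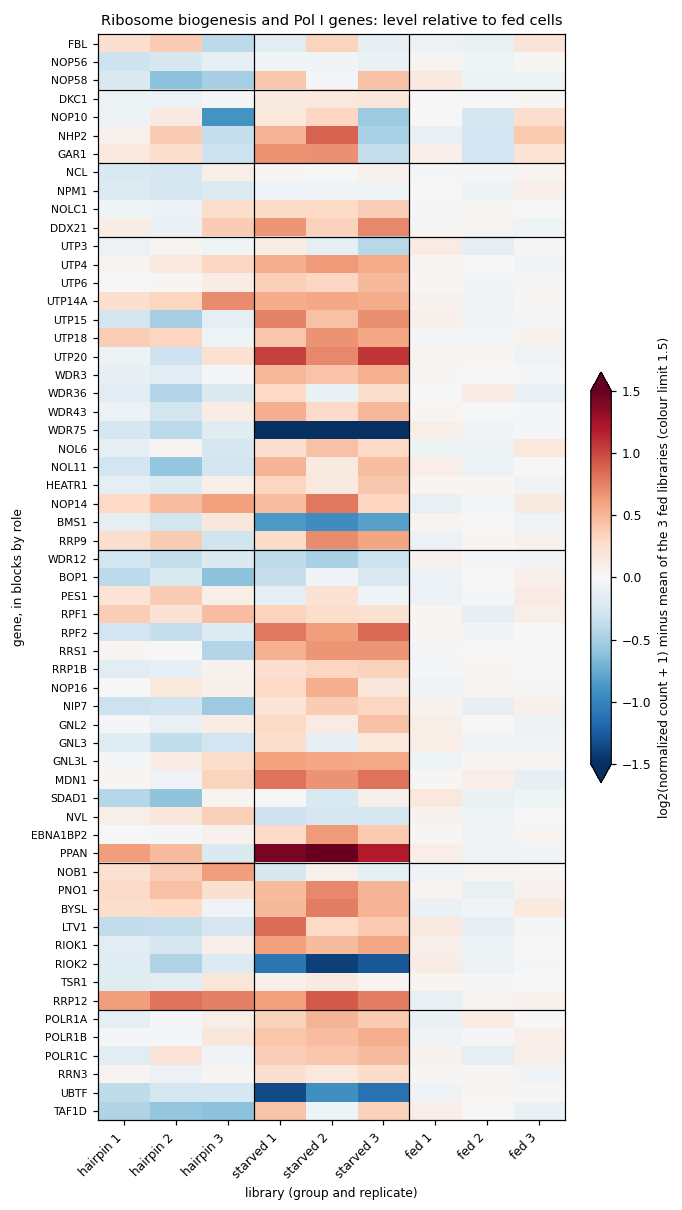
Level of each of the 59 tested genes (one line per gene, in blocks by role) in each of the 9 libraries, as log2(normalized count + 1) minus the mean of the 3 fed libraries; red is higher and blue lower. WDR75, RIOK2, UBTF and BMS1 are blue in the 3 starved libraries, while 35 genes were called higher in starved than in fed cells.

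The sharpest change was in WDR75 (ENSG00000115368, chr2:189441446-189475552, plus strand, GRCh38), a WD-repeat protein of the subcomplex of the small subunit processome that binds the 5′ end of the rRNA precursor and is needed for its transcription. WDR75 had 1249, 1118 and 1307 normalized counts in knockdown libraries, 445, 363 and 417 in starved libraries, and 1573, 1434 and 1450.4 in fed libraries. Every starved library lay below every other library, and every knockdown library lay below every fed one. Its log2 fold change was -1.87 ± 0.10 in starved against fed cells (SE, limma adjusted p = 6.24e-07), 1.58 ± 0.10 in knockdown against starved cells (adjusted p = 1.4e-06) and -0.28 ± 0.10 in knockdown against fed cells (adjusted p = 0.0808). The other members of the same subcomplex on the list did not share the fall. UTP4, UTP15, WDR43, NOL11 and HEATR1 all rose in starved against fed cells, by 0.58, 0.63, 0.44, 0.37 and 0.29 on the log2 scale. The HEATR1 call was lost without any one of the fed libraries or without starved replicate 1 or 3, and the NOL11 call without fed replicate 2 or 3 or starved replicate 1 or 3. WDR43 too did not keep its call under every setting tried. HEATR1 shares 23.2% of its exon bases with LGALS8 on the other strand, and the use of strand in counting is not given. LGALS8 averaged 257, 420 and 215 normalized counts in knockdown, starved and fed cells.

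UBTF (ENSG00000108312, chr17:44205033-44221626, minus strand) encodes the architectural factor that coats active rRNA genes and recruits the polymerase I initiation machinery. UBTF had 1889, 2066 and 2062 normalized counts in knockdown libraries, 974, 1304 and 1139 in starved libraries, and 2382, 2523 and 2504 in fed libraries. The 3 groups did not overlap, with starved libraries lowest, knockdown libraries between and fed libraries highest. The log2 fold changes were -1.13 ± 0.11 in starved against fed cells (limma adjusted p = 1.61e-05), 0.82 ± 0.11 in knockdown against starved cells (adjusted p = 0.000119) and -0.30 ± 0.11 in knockdown against fed cells (adjusted p = 0.0702), the last of which missed the threshold of 0.05.

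RIOK2 (ENSG00000058729, chr5:97160867-97183247, minus strand) is an atypical kinase that acts on late pre-40S particles in the cytoplasm. RIOK2 had 418, 346 and 411 normalized counts in knockdown libraries, 221, 179 and 195 in starved libraries, and 512, 445 and 464 in fed libraries. Its starved libraries lay below all others and its knockdown libraries below all fed ones. The log2 fold change was -1.25 ± 0.12 in starved against fed cells (limma adjusted p = 2.07e-05) and 0.98 ± 0.12 in knockdown against starved cells (adjusted p = 9.79e-05).

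BMS1 (ENSG00000165733, chr10:42782795-42834937, plus strand) is a GTPase of the small subunit processome. BMS1 had 2757, 2497 and 3405 normalized counts in knockdown libraries, 1672, 1585 and 1726 in starved libraries, and 3121, 3039 and 2925 in fed libraries, so that the starved libraries lay below all others while knockdown and fed libraries overlapped. It fell by 0.87 on the log2 scale in starved against fed cells (SE 0.11, limma adjusted p = 0.000114), and its change in knockdown against starved cells was 0.79 ± 0.11 (adjusted p = 0.000195). The annotation lists 17 pseudogenes named after BMS1, and how reads shared with them were counted is not given in the sources used here, so its values are less certain.

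WDR12 and NVL belong to the pre-60S branch, WDR12 as a partner of PES1 and BOP1 and NVL as an ATPase that releases factors from the particle. WDR12 had 1065, 1009.6 and 1119 normalized counts in knockdown libraries, 996, 928 and 1033 in starved libraries, and 1356, 1278 and 1259 in fed libraries; knockdown and starved libraries both lay below the fed ones, and the change in knockdown against starved cells (0.11 ± 0.09, limma adjusted p = 0.314) did not pass the test. NVL had 1424, 1506 and 1709 normalized counts in knockdown libraries, 1078, 1116 and 1111 in starved libraries, and 1386, 1280.3 and 1339.6 in fed libraries, with starved libraries lowest and knockdown libraries highest. Its fall on starvation was small (-0.28 ± 0.09, adjusted p = 0.0286) and lost the call when fed replicate 1, 2 or 3 or starved replicate 1 or 3 was left out. Its rise in knockdown against starved cells was 0.48 ± 0.09 (adjusted p = 0.00127).

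**Figure D2:**
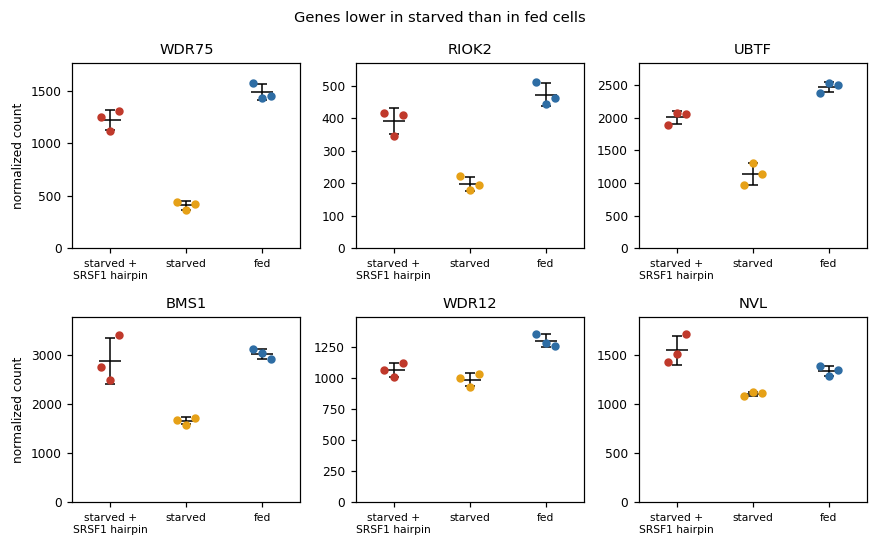
Normalized counts of the 6 genes called lower in starved than in fed cells, by group (points, single libraries; horizontal bar and whiskers, mean ± SD of 3 libraries; axes start at 0). In all 6 genes the starved libraries lie below the fed ones, and in WDR75, RIOK2, UBTF, BMS1 and NVL they also lie well below the knockdown libraries.

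The promoters of the genes are shown here because some short words were more frequent in them than in the promoters of other tested genes. Promoter windows from RefSeq (GRCh38.p14; 250 bases before the annotated start to 50 after it) were found for 53 of the 60 genes and none for NOP58, NOLC1, BOP1, RPF2, RRS1, RRP1B and RRP12. The E-box CACGTG, the palindromic word bound by MYC, MAX, USF and related factors, was present in 19 of the 53 windows (35.8%), beside 10.3% of 9053 windows of tested genes and 7.43% of all 27305 windows. It was present in 14 of the 30 windows of genes called higher in starved cells and in 0 of the 6 windows of genes called lower. The 19 genes held 22 copies, 17 of them within 100 bases of the start. Where a gene had several windows, the first listed alone was read, so its other starts were not searched. The windows of EBNA1BP2 and PES1 lie well inside the annotated spans of these genes. A match describes letters in a window and says nothing of binding, and promoter sequences were not measured in these samples.

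Short windows of 10 bases on each side (9 before it in UTP14A, at the edge of the promoter window) show the E-box of all 14 raised genes that hold one, in capitals and on the gene's own strand; where a gene has more than one copy, the copy nearest the start is shown. They lie at chr12:101280085-101280110 (UTP20), chr6:89819752-89819777 (MDN1), chr16:69132623-69132648 (UTP4), chr6:41921517-41921542 (BYSL), chr2:68157887-68157912 (PNO1), chrX:129905914-129905938 (UTP14A), chr17:51260540-51260565 (UTP18), chr4:2963376-2963401 (NOP14), chr3:51941894-51941919 (RRP9), chr6:143843356-143843381 (LTV1), chr2:28894660-28894685 (WDR43), chr1:43172792-43172817 (EBNA1BP2), chr9:33473896-33473921 (NOL6) and chr1:37595919-37595944 (GNL2).
UTP20: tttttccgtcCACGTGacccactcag
MDN1: tgtgctcaccCACGTGtggtgcccct
UTP4: agcgcgcgcgCACGTGgggccggggc
BYSL: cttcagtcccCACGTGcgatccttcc
PNO1: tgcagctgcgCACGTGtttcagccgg
UTP14A: accttgggcCACGTGgaaaccaggg
UTP18: agcgaggttcCACGTGagcgcctgcg
NOP14: cgcggcccggCACGTGtcttagggta
RRP9: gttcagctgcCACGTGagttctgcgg
LTV1: cctggggctgCACGTGtggtgaggcc
WDR43: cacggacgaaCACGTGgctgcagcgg
EBNA1BP2: tattgttggcCACGTGggatcgaaga
NOL6: catttccgccCACGTGggaagctatg
GNL2: acgtcgtgcaCACGTGgtccggcgtg
Their log2 fold changes in starved against fed cells were 0.94, 0.77, 0.58, 0.59, 0.57, 0.56, 0.56, 0.52, 0.52, 0.51, 0.44, 0.44, 0.33 and 0.29 in the order printed. The bases around the shared word differ from gene to gene.

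Of the 52 tested genes with a window, 18 held CACGTG: 14 of these rose, 0 fell and 4 were not called in starved against fed cells, with a median log2 fold change of 0.52. Of the 34 without it 16 rose and 6 fell, with a median of 0.26. Among all tested genes with a window, 30.8% of 935 with the word rose and 14.8% fell, beside 20.8% and 21.9% of 8118 without it. In knockdown against starved cells 10 of the 18 genes with the word fell and 0 rose (median -0.38), and of the 34 without it 18 fell and 6 rose (median -0.29). The 4 genes with the word and no call on starvation were FBL, NOP10, PES1 and SDAD1. Of the 3 other words counted, on both strands, CCGGAAG was in 39.6% of the 53 windows and in 20.3% of the windows of tested genes, CCAAT in 34.0% and 37.2%, and TGACGT in 17.0% and 12.2%. CCGGAAG too was in 14 of the 30 windows of raised genes and in 0 of the 6 of lowered genes, and TGACGT in 7 of the 30 and 0 of the 6. The windows differed in base composition as well, with a median GC content of 61.7% in the 53 genes and 66.0% in tested genes.

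Full windows of 4 genes are printed in lower case, with matches to the 4 words on either strand in capitals: PPAN, the largest rise (chr19:10105973-10106272, plus strand), WDR75, the largest fall (chr2:189441224-189441523, plus strand), and UTP20 (chr12:101279855-101280154, plus strand) and MDN1 (chr6:89819745-89820044, minus strand), the largest rises among genes that hold the E-box.
PPAN: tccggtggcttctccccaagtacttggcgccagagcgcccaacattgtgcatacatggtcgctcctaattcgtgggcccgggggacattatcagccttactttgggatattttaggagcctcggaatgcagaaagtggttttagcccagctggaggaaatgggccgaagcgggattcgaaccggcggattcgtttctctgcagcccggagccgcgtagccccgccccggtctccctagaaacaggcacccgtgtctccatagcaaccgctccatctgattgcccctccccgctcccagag
WDR75: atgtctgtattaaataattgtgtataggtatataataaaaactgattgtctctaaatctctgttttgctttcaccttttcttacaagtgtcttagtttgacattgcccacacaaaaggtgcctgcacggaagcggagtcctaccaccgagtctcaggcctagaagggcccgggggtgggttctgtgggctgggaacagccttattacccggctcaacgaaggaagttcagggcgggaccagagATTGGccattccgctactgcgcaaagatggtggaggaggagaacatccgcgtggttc
UTP20: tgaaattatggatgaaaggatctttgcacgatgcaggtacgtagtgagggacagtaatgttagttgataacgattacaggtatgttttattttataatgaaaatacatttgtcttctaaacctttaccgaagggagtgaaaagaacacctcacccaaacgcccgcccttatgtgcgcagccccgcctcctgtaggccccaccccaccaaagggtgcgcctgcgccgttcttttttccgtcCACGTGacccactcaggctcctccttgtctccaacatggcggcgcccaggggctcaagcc
MDN1: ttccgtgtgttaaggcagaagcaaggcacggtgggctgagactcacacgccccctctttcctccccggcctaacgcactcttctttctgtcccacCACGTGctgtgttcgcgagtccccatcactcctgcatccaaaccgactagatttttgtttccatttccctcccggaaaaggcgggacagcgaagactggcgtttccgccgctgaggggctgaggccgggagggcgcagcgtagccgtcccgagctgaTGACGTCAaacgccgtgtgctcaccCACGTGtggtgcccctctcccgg
The PPAN window holds none of the 4 words, so the largest rise came with no E-box in these 300 bases. The capitals in WDR75 are 1 CCAAT box read on the opposite strand, whereas UTP20 holds 1 E-box and MDN1 holds 2. The middle run of capitals in MDN1 is TGACGTCA, in which TGACGT and its reverse complement overlap.

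Among the polymerase I genes, POLR1A, POLR1B, POLR1C and RRN3 were called higher on starvation. UBTF was called lower and TAF1D was not called. The test called 4 of the 6 higher and 1 lower in starved than in fed cells, and 1 higher and 5 lower in knockdown than in starved cells. Of all tested genes 21.5% were called each way in the first comparison, and 22.6% higher and 24.1% lower in the second. POLR1A, the catalytic largest subunit, had 2220.1, 2397 and 2604 normalized counts in knockdown libraries, 3119, 3502 and 3222 in starved libraries, and 2282, 2646 and 2451 in fed libraries. POLR1B, the second largest subunit, had 1775, 1775 and 2044 normalized counts in knockdown libraries, 2423, 2512 and 2647 in starved libraries, and 1745, 1799 and 1908 in fed libraries. Both genes had starved libraries above all others and knockdown libraries within or next to the fed range. POLR1A changed by 0.42 ± 0.09 on the log2 scale in starved against fed cells (limma adjusted p = 0.00458) and by -0.45 ± 0.09 in knockdown against starved cells (adjusted p = 0.0027). POLR1B changed by 0.48 ± 0.09 (adjusted p = 0.00138) and -0.44 ± 0.09 (adjusted p = 0.00202) in the same comparisons.

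POLR1C, a subunit that polymerase I shares with polymerase III, had 393, 503 and 422 normalized counts in knockdown libraries, 568, 585 and 609 in starved libraries, and 457, 397 and 469 in fed libraries. Its starved libraries were again highest, with log2 fold changes of 0.42 ± 0.12 (limma adjusted p = 0.0136) and -0.42 ± 0.12 (adjusted p = 0.0114); the first lost its call without fed replicate 2 or starved replicate 3. RRN3, which links the polymerase to the promoter-bound factors, had 1404, 1287 and 1399 normalized counts in knockdown libraries, 1619, 1528 and 1656 in starved libraries, and 1383, 1385 and 1333 in fed libraries. It moved least, by 0.23 ± 0.08 (adjusted p = 0.0414) and -0.23 ± 0.08 (adjusted p = 0.0354), and both calls were lost without starved replicate 1 or 3, among other single libraries. These RRN3 values also carry the doubt of 2 pseudogenes named after it.

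TAF1D, a subunit of the promoter selectivity factor SL1, was the polymerase I gene of the list called in knockdown against fed cells. TAF1D had 1028, 935 and 916 normalized counts in knockdown libraries, 1895, 1345 and 1777 in starved libraries, and 1507, 1405 and 1305 in fed libraries. Starved and fed libraries overlapped, and every knockdown library lay below every other library. The change in starved against fed cells was 0.24 ± 0.13 and did not pass the test (limma adjusted p = 0.151), while the log2 fold change in knockdown cells was -0.79 ± 0.13 against starved cells (adjusted p = 0.000478) and -0.55 ± 0.13 against fed cells (adjusted p = 0.0133). The last call was lost without fed replicate 1 or 2. Exons of TAF1D overlap 4 genes on the other strand, among them C11orf54, whose mean was 153 normalized counts in knockdown, 649 in starved and 168 in fed cells, and whether the counting used strand is not given in the sources used here.

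**Figure D3:**
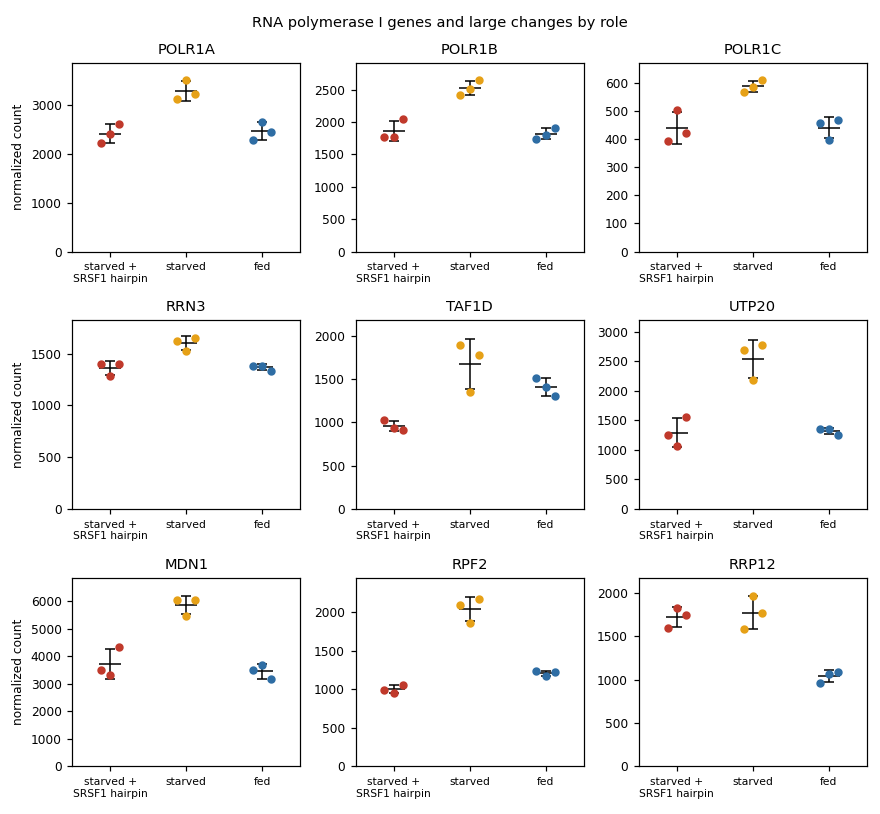
Normalized counts of 5 polymerase I genes and of 4 genes with large changes in other roles, by group (points, single libraries; horizontal bar and whiskers, mean ± SD of 3 libraries; axes start at 0). Starved libraries are highest for POLR1A, POLR1B, POLR1C, UTP20, MDN1 and RPF2, knockdown libraries are lowest for TAF1D, and RRP12 is about as high in knockdown as in starved libraries.

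Among the 17 genes of the small subunit processome, 13 rose and 2 fell in starved against fed cells (76.5% and 11.8%, beside 21.5% each of all tested genes), with a median log2 fold change of 0.44. UTP20 (ENSG00000120800, chr12:101280105-101386618, plus strand), a very large scaffold protein of the particle, led the rises. UTP20 had 1247, 1067 and 1549 normalized counts in knockdown libraries, 2685, 2176 and 2769 in starved libraries, and 1358, 1347 and 1258 in fed libraries; all 3 starved libraries lay above the rest, and knockdown and fed libraries overlapped. Its log2 fold change was 0.94 ± 0.14 in starved against fed cells (limma adjusted p = 0.000283), -0.99 ± 0.14 in knockdown against starved cells (adjusted p = 0.000178) and -0.05 ± 0.14 in knockdown against fed cells (adjusted p = 0.82).

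UTP15, a WD-repeat protein of the same subcomplex as WDR75, had 511, 439 and 557 normalized counts in knockdown libraries, 1038, 839 and 1001 in starved libraries, and 649, 598 and 607 in fed libraries. Here the 3 groups did not overlap, with starved libraries highest and knockdown libraries lowest. The changes were 0.63 ± 0.12 in starved against fed cells (limma adjusted p = 0.00139) and -0.93 ± 0.12 in knockdown against starved cells (adjusted p = 9.5e-05). The other raised genes of this role were UTP4, UTP6, UTP14A, UTP18, WDR3, WDR43, NOL6, NOL11, HEATR1, NOP14 and RRP9, with log2 fold changes between 0.29 (HEATR1) and 0.58 (UTP4). Besides HEATR1 and NOL11, NOL6 lost its call without fed replicate 1 or 2 or starved replicate 2 or 3, and RRP9 without any one of the fed libraries or starved replicate 2 or 3. UTP6 and WDR43 also did not keep this call under every setting tried. UTP3 and WDR36 did not pass the test (-0.15 and 0.15).

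In knockdown against starved cells 11 of the 17 processome genes fell and 2, WDR75 and BMS1, rose (64.7% and 11.8%, beside 24.1% and 22.6% of all tested genes). The falls ran between -0.34 (UTP6) and -0.99 (UTP20), with UTP15, NOL11 (-0.75) and WDR3 (-0.59) among the larger ones. Those of UTP6, UTP18, WDR36 and HEATR1 did not keep their call under every setting tried. UTP14A and NOP14 did not follow the falls. UTP14A, a processome protein that activates the helicase DHX37, had 1387, 1456 and 1904 normalized counts in knockdown libraries, 1713, 1739 and 1718 in starved libraries, and 1207, 1115 and 1183 in fed libraries. NOP14, another processome protein, had 1315, 1473 and 1632 normalized counts in knockdown libraries, 1467, 1846 and 1329 in starved libraries, and 984, 1051 and 1169 in fed libraries. In both genes knockdown and starved libraries overlapped and both groups lay above the fed one, with log2 fold changes in knockdown against fed cells of 0.42 ± 0.11 (limma adjusted p = 0.0265) and 0.46 ± 0.13 (adjusted p = 0.0327). Each lost this call without any one of the fed libraries.

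NOL11, needed for rRNA transcription and processing, was the processome gene called lower in knockdown than in fed cells. NOL11 had 2138, 1752 and 2143 normalized counts in knockdown libraries, 3712, 2875 and 3611 in starved libraries, and 2796, 2468 and 2597 in fed libraries, so that the 3 groups did not overlap, with starved libraries highest and knockdown libraries lowest. Its change in knockdown against fed cells was -0.39 ± 0.12 (limma adjusted p = 0.0444), a call lost without any one of the fed libraries or without knockdown replicate 1 or 2.

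Of the 17 tested pre-60S genes, 11 rose and 2 fell in starved against fed cells (64.7% and 11.8%, beside 21.5% each of all tested genes), and 1 rose and 10 fell in knockdown against starved cells (5.88% and 58.8%, beside 22.6% and 24.1%). RPF2 (ENSG00000197498, chr6:110982015-111028263, plus strand) and RRS1 form the complex that brings the 5S ribonucleoprotein into the early 60S particle. RPF2 had 995, 954 and 1059.7 normalized counts in knockdown libraries, 2093, 1868 and 2176 in starved libraries, and 1238, 1174 and 1219.9 in fed libraries. RRS1 had 633, 621 and 455 normalized counts in knockdown libraries, 897, 979 and 976 in starved libraries, and 612, 620.5 and 623 in fed libraries. In both genes the starved libraries stood highest, and RPF2 alone of the pair had every knockdown library below every fed one.

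RPF2 changed by 0.75 ± 0.09 in starved against fed cells (limma adjusted p = 6.96e-05) and by -1.03 ± 0.09 in knockdown against starved cells (adjusted p = 8.27e-06). RRS1 changed by 0.62 ± 0.12 (adjusted p = 0.0022) and -0.75 ± 0.12 (adjusted p = 0.000574). The annotation lists 2 pseudogenes named after RPF2.

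MDN1, a giant AAA ATPase that strips assembly factors from pre-60S particles, had 3519, 3319 and 4339 normalized counts in knockdown libraries, 6043, 5475 and 6059.8 in starved libraries, and 3496, 3680.4 and 3170.3 in fed libraries. Starved libraries lay far above both other groups, which overlapped. MDN1 changed by 0.77 ± 0.11 in starved against fed cells (limma adjusted p = 0.00027) and by -0.66 ± 0.11 in knockdown against starved cells (adjusted p = 0.000641). Among the nucleolar GTPases, GNL3L changed by 0.59 and -0.47 in the same 2 comparisons, and passed both. GNL3, which encodes nucleostemin, changed by 0.09 in starved against fed cells (adjusted p = 0.522) and fell by 0.37 in knockdown against starved cells (adjusted p = 0.0155), a call lost without starved replicate 1 or 3 or knockdown replicate 2.

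PPAN, a factor of early 60S assembly, had the largest fold rise of all 59 genes at a low level. PPAN had 64.2, 57.5 and 35.1 normalized counts in knockdown libraries, 112, 133 and 95.3 in starved libraries, and 44.1, 39.4 and 39.9 in fed libraries. All starved libraries lay above all others, and knockdown and fed libraries overlapped. The log2 fold change was 1.43 ± 0.24 in starved against fed cells (limma adjusted p = 0.000648) and -1.14 ± 0.24 in knockdown against starved cells (adjusted p = 0.00254). In the annotation 56.0% of its exon bases are shared with the read-through gene PPAN-P2RY11 on the same strand, which is listed at 0 in every library, so reads common to both are uncertain. The neighbouring P2RY11 averaged 47.7 normalized counts in knockdown, 127 in starved and 38.1 in fed cells.

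NIP7, which acts in the assembly of both subunits, had 779, 792 and 668 normalized counts in knockdown libraries, 1116, 1267 and 1218 in starved libraries, and 1005, 895 and 1021 in fed libraries. Knockdown libraries were lowest and did not overlap the other groups. NIP7 changed by -0.69 ± 0.10 in knockdown against starved cells (limma adjusted p = 0.000287) and by -0.38 ± 0.10 against fed cells (adjusted p = 0.0247), and the second call was lost without fed replicate 1 or 3. NIP7 shares 20.2% of its exon bases with COG8 on the other strand, and the use of strand in counting is not given. COG8 averaged 162, 245 and 151 normalized counts in knockdown, starved and fed cells. There are also 3 annotated pseudogenes named after NIP7. BOP1, WDR12 and PES1 form one complex. Against fed cells BOP1 and WDR12 changed by -0.21 and -0.40 in starved cells, and by -0.41 and -0.29 in knockdown cells. Which changes passed the test differed, and differences between the genes were not tested. BOP1 was called in knockdown against fed cells alone (-0.41 ± 0.12, adjusted p = 0.0332), WDR12 was low in both starved groups, and PES1 changed by 0.00, 0.22 and 0.23 in the 3 comparisons, none of which passed the test. RPF1 was the pre-60S gene called higher in knockdown than in fed cells (0.35 ± 0.10, adjusted p = 0.0282). The calls of BOP1, WDR12 and RPF1 against fed cells were each lost when any one of the fed libraries was left out.

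NOP2, an rRNA cytosine methyltransferase, was the gene left out by the level filter, with 20.3, 13.3 and 4.13 normalized counts in knockdown libraries, 22.0, 26.4 and 13.9 in starved libraries, and 14.4, 7.70 and 5.32 in fed libraries. Its changes were therefore not called, and 54.4% of its exon bases are shared with the same-strand gene AC006064.6, which is listed at 0 in every library. The table therefore says little about NOP2.

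Of the 8 late pre-40S genes 5 were higher and 1 lower in starved than in fed cells (62.5% and 12.5%, beside 21.5% each of all tested genes), and 2 were higher and 3 lower in knockdown than in starved cells (beside 22.6% and 24.1%). RRP12 (ENSG00000052749, chr10:97356358-97426076, minus strand), a HEAT-repeat factor known in yeast for export of pre-ribosomes, had 1598, 1826 and 1752 normalized counts in knockdown libraries, 1589, 1965 and 1770.4 in starved libraries, and 958, 1072 and 1088 in fed libraries. Knockdown and starved libraries overlapped, and both lay above all fed ones. Its log2 fold change was 0.77 ± 0.10 in starved against fed cells (limma adjusted p = 0.000164), -0.04 ± 0.10 in knockdown against starved cells (adjusted p = 0.785) and 0.73 ± 0.10 in knockdown against fed cells (adjusted p = 0.00102). Of the 11 genes called in knockdown against fed cells, RRP12 alone kept its call under each of the settings tried.

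NOB1, the endonuclease that makes the final cut at the end of 18S rRNA, had 1077, 1184 and 1409.9 normalized counts in knockdown libraries, 778, 959 and 829 in starved libraries, and 881, 939 and 929 in fed libraries. Starved and fed libraries overlapped, and every knockdown library lay above both groups. NOB1 rose in knockdown against starved cells by 0.51 ± 0.12 (limma adjusted p = 0.00412) and against fed cells by 0.41 ± 0.12 (adjusted p = 0.0328), while its change in starved against fed cells was -0.10 ± 0.12 (adjusted p = 0.501). The call against fed cells was lost without any one of the fed libraries or without knockdown replicate 2 or 3.

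The 2 RIO kinases of the list moved in opposite directions. RIOK1, which acts beside RIOK2 on pre-40S particles, had 1072, 1007 and 1266 normalized counts in knockdown libraries, 1842, 1669 and 1804 in starved libraries, and 1265, 1143 and 1202 in fed libraries. Its starved libraries were highest, where those of RIOK2 were lowest. RIOK1 changed by 0.56 ± 0.10 in starved against fed cells (limma adjusted p = 0.00117) and by -0.67 ± 0.10 in knockdown against starved cells (adjusted p = 0.000319).

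LTV1, an adaptor that must leave the particle before it matures, had 289, 293 and 314 normalized counts in knockdown libraries, 667, 458 and 488 in starved libraries, and 411, 342 and 368 in fed libraries. The 3 groups did not overlap, with starved libraries highest and knockdown libraries lowest. LTV1 changed by -0.83 ± 0.14 in knockdown against starved cells (limma adjusted p = 0.000763) and by 0.51 ± 0.14 in starved against fed cells (adjusted p = 0.0139), and lost the second call without fed replicate 2 or starved replicate 1. BYSL, which sits beside LTV1 on the particle, and PNO1, the binding partner of NOB1, rose on starvation by 0.59 and 0.57. In knockdown against starved cells BYSL fell (-0.42, a call lost without starved replicate 2) and PNO1 changed by -0.25 without passing the test (adjusted p = 0.0725). TSR1, a GTPase-like factor, passed the test in none of the 3 comparisons.

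The snoRNP proteins and the abundant nucleolar proteins NPM1 and NCL held no call on starvation. None of the 7 snoRNP genes passed the test in starved against fed cells. Their log2 fold changes lay between -0.06 (NOP56) and 0.34 (GAR1), a range that includes the size of called changes such as that of GNL2 (0.29). FBL, the methyltransferase fibrillarin, stood at 204, 183 and 192 FPKM in knockdown, starved and fed cells. Nucleophosmin (NPM1) stood at 256, 275 and 304 FPKM and nucleolin (NCL) at 176, 187 and 195 FPKM in the same order. None of these 3 genes was called in any comparison. The annotation lists 45 pseudogenes named after NPM1, so its count is less certain than those of NCL and FBL.

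Of the box C/D proteins NOP58 fell in knockdown cells, while its partner NOP56 did not pass the test in any comparison. NOP58 had 1733, 1314 and 1425 normalized counts in knockdown libraries, 2696, 1988 and 2725 in starved libraries, and 2230.1, 1909 and 1916 in fed libraries. All knockdown libraries lay below all others, and starved and fed libraries overlapped. NOP58 changed by -0.72 ± 0.14 in knockdown against starved cells (limma adjusted p = 0.00173) and by -0.44 ± 0.14 against fed cells (adjusted p = 0.0499). The second value lies at the threshold and lost its call under 13 of 20 settings. DKC1, the pseudouridine synthase of the box H/ACA particles, fell slightly in knockdown against starved cells (-0.22 ± 0.07, adjusted p = 0.0271). It lost that call without starved replicate 3 or knockdown replicate 1 or 2.

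The helicase DDX21, which joins rRNA transcription and processing, had 9779.8, 8421 and 11814 normalized counts in knockdown libraries, 14289.9, 11494 and 14948 in starved libraries, and 9187, 9295 and 8655 in fed libraries. Knockdown replicate 3 stood above starved replicate 2, so these groups overlapped, and the starved libraries lay above all fed ones. DDX21 rose by 0.58 on the log2 scale in starved against fed cells (SE 0.13, limma adjusted p = 0.00517) and changed by -0.45 ± 0.13 in knockdown against starved cells (adjusted p = 0.0183), a call lost without starved replicate 1 or 3 or knockdown replicate 2. NOLC1, a phosphoprotein that binds snoRNPs and polymerase I, changed by 0.32 ± 0.10 (adjusted p = 0.0255) and -0.28 ± 0.10 (adjusted p = 0.041), and lost the first call without starved replicate 1 or 3 or any fed library, and the second under 13 of 20 settings, among them each starved library and knockdown replicate 1 or 2 left out.

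**Figure D4:**
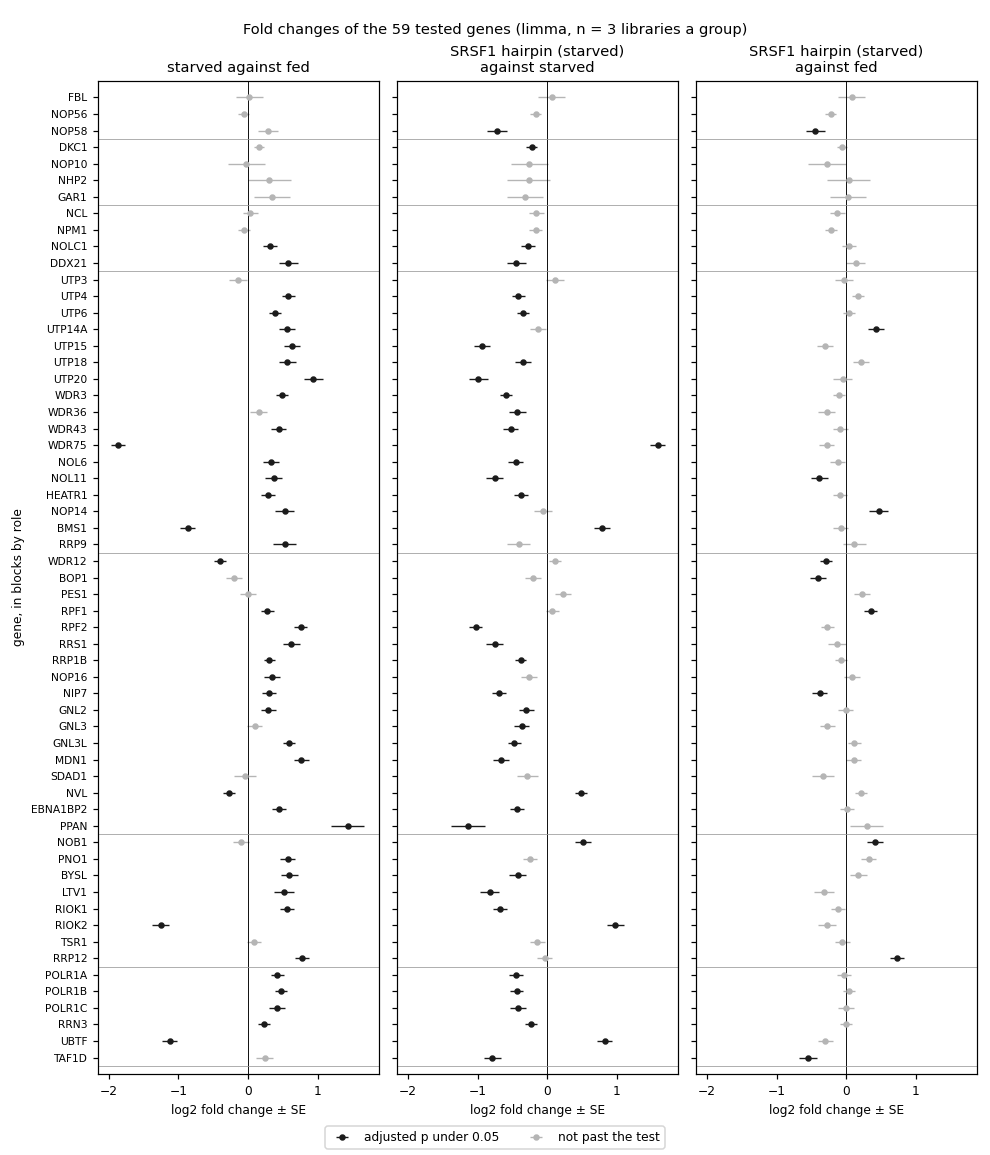
Log2 fold change ± SE (limma, 3 libraries a group) of the 59 tested genes in the 3 comparisons, in blocks by role; black points passed an adjusted p of 0.05 and grey points did not. In starved against fed cells 35 genes lie right of 0 in black and 6 left of it, in knockdown against starved cells 6 and 33, and in knockdown against fed cells 5 and 6.

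Some short genes of the list varied strongly between libraries of one group. The SD of log2 values in starved libraries was 0.71 in NHP2, 0.60 in GAR1 and 0.45 in NOP10. It was 0.07 in RRS1, 0.15 in BYSL, 0.23 in RRP9 and 0.29 in LTV1, the other list genes under 2 kb. NHP2, a core protein of the H/ACA particles, had 1576, 1948 and 1179.5 normalized counts in knockdown libraries, 2144, 2765 and 1068 in starved libraries, and 1389.8, 1232 and 1977 in fed libraries. GAR1, of the same particles, had 814, 876 and 593 normalized counts in knockdown libraries, 1182, 1189 and 577 in starved libraries, and 779, 606 and 851 in fed libraries. In both genes starved replicate 3 stood far below the other 2 starved libraries and knockdown replicate 3 was lowest of its group. Without starved replicate 3, NHP2 and GAR1 were called higher in starved than in fed cells, by 0.70 (limma adjusted p = 0.0417) and 0.68 (adjusted p = 0.0164), where with all libraries they changed by 0.30 ± 0.31 (adjusted p = 0.461) and 0.34 ± 0.26 (adjusted p = 0.317).

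Deviations of whole libraries followed gene length. In starved replicate 3 the 7 list genes under 2 kb had a median log2 deviation from their group mean of -0.12, and all 868 tested genes under 2 kb had -0.11, much less than the gap seen in NHP2 and GAR1. In knockdown replicate 3 the 7 list genes under 2 kb deviated by -0.34 and the 868 tested genes by -0.28. At 8 kb or more the same library deviated by 0.14 over 11 list genes and by 0.13 over 2714 tested genes. In knockdown replicate 2 short genes deviated the other way, by 0.22 for the list and 0.19 for all tested genes. Knockdown replicate 3 also had the highest share of mitochondrially encoded mRNA, 5.56% of normalized counts beside 3.52% and 3.75% in the other knockdown libraries; the part of either in the results was not tested. Without this library the members called lower in knockdown than in starved cells were 37 and those called higher were 6. All tested genes then held 2939 lower and 2623 higher.

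**Figure D5:**
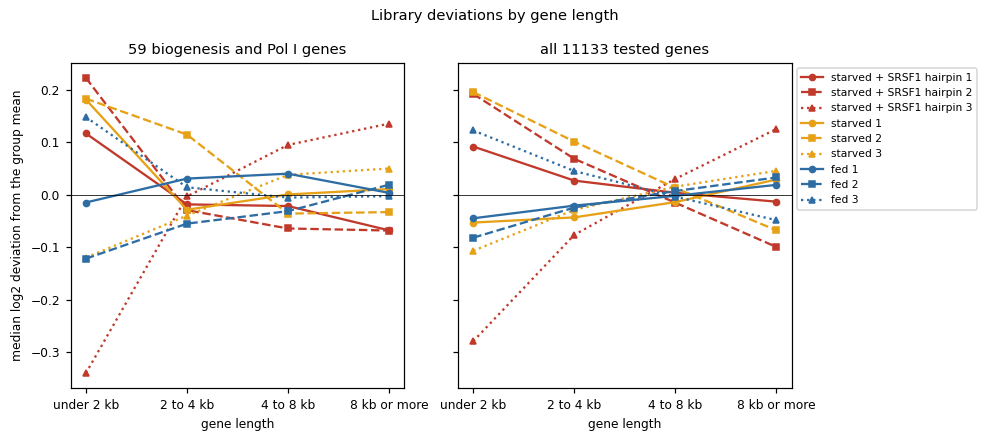
Median deviation of log2(normalized count + 1) from the group mean in each library, by class of gene length, for the 59 list genes (left) and all 11133 tested genes (right); each line is 1 library. Knockdown replicate 3 lies lowest for genes under 2 kb, at -0.34 and -0.28, and highest for genes of 8 kb or more.

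Other genes of the same pathway, 140 in all and none of them among the 60, were read from a second list, of which 138 passed the level filter. In starved against fed cells 50 of the 138 rose and 8 fell (36.2% and 5.80%, beside 21.5% each of all tested genes), with a median log2 fold change of 0.21. In knockdown against starved cells 8 rose and 53 fell (5.80% and 38.4%, beside 22.6% and 24.1%; median -0.22), and in knockdown against fed cells 6 rose and 12 fell (4.35% and 8.70%, beside 9.43% and 9.49%; median -0.03). Of the 35 other small subunit factors tested, 18 rose and 0 fell on starvation, and of 17 other polymerase I subunits and factors 8 rose and 1 fell. The 50 other large subunit factors tested held 18 rises and 3 falls (36% and 6%). The 10 snoRNP assembly factors held 1 rise and 2 falls (10% and 20%). The 26 exosome and RNase MRP proteins held 5 rises and 2 falls (19.2% and 7.69%), a share of rises near the 21.5% of all tested genes. Differences between these groups were not tested.

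The largest rises on starvation in this second list were in NOL9, a polynucleotide kinase of pre-60S processing, TAF1A, another SL1 subunit, and RPP14, a subunit of RNase P. NOL9 had 776, 799.9 and 878 normalized counts in knockdown libraries, 1791, 1739.9 and 1794 in starved libraries, and 762, 754 and 737 in fed libraries, and its changes were 1.24 ± 0.08 in starved against fed cells and -1.12 ± 0.08 in knockdown against starved cells (limma adjusted p = 1.81e-06 and 3.16e-06). TAF1A, of the same complex as TAF1D, changed by 1.02 and -1.10 in these comparisons. RPP14 rose by 0.91 on starvation. The largest falls were in NOL12 (-0.91), TMA16 (-0.80) and RRP8 (-0.67), of which RRP8 takes part in silencing of rRNA genes. NOL12 had a low level, with means of 44.5 normalized counts in starved and 83.7 in fed cells (0.88 and 1.77 FPKM).

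In knockdown against starved cells BAZ2A, the large subunit of the nucleolar remodelling complex that silences rRNA genes, rose most (0.99 ± 0.10, limma adjusted p = 2.95e-05), followed by TMA16 (0.63) and RRP8 (0.59). The largest falls were in POLR1G, a polymerase I subunit (-1.19 ± 0.21), DCAF13 (-1.17) and NOL9. POLR1G too had a low level, with means of 64.7 normalized counts in knockdown and 148 in starved cells. In knockdown against fed cells BAZ2A (0.59), ZNF622 (0.46) and TBP (0.39) were the largest rises, and ESF1 (-1.05), ERI1 (-0.73) and RPP40 (-0.72) the largest falls. Without fed replicate 1 the calls of ZNF622, TBP and RPP40 were lost, and those of ZNF622 and TBP also without fed replicate 2, and that of TBP without fed replicate 3 or knockdown replicate 1. BAZ2A had 4239.7, 4442 and 5445 normalized counts in knockdown libraries, 2190.4, 2482 and 2390.0 in starved libraries, and 3065, 3247 and 3004 in fed libraries, so the knockdown libraries stood above all others.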

How the data were processed

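RNA of 293T cells was made into mRNA libraries with a SMARTER kit, per the labels' protocols. The authors deposited signal values that turned out to be gene-level read counts scaled by a library's size factor (100% of values above 0 were whole multiples of 1 step in each of 9 libraries, tolerance 1e-08). The table is named for FPKM, the unit assumed in planning. Aligner, counter and use of strand are not given in the sources used here. Per the submitters' processing notes the build was mm10, but the gene identifiers are human and all 60 genes overlapped their GENCODE position on GRCh38.

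Genes that reached 1 FPKM in 3 or more libraries were kept (11133 of 19966). Log2(value + 1) was compared with limma (trend, 3 group means over 9 libraries, two-sided, Benjamini-Hochberg over all kept genes, threshold 0.05). Limma and edgeR were tested on simulated data. The genes, their role lists and the second list of 140 genes were chosen with earlier results of these data known. The text names, for each role and comparison, up to 4 of the largest called changes, called genes that went against the majority, all 6 polymerase I genes and genes left out, and of the second list the 3 largest each way. Other genes it names, those beside a protein partner, a kinase pair, short genes, overlapping genes and epithelial genes, were chosen after their values were seen. Settings varied were the pseudocount, the filter, TPM, quantile and median ratio scaling, limma without trend, only the 2 groups compared, a replicate block, edgeR's quasi-likelihood test on recovered reads of 8 libraries (without starved replicate 1, whose size factor is close to 1), and each library left out in turn. Log2(FPKM + 1) and removal of GC or length trends were added after seeing the data. The depth of 11775367 to 15231651 reads leaves little counting error at the list's median of 1614 normalized counts. Versions were limma 3.58.1 and edgeR 4.0.16 in R 4.3.3, and pandas 2.3.3, numpy 2.4.6 and matplotlib 3.10.9 in Python 3.11.15.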

Additional observations from a re-analysis of the deposited data

How the results depend on the processing

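No gene of the list changed direction from one called side to the other under any setting tried. Under every setting 20 of the 35 rises and 5 of the 6 falls on starvation kept their call, as did all 6 rises and 22 of the 33 falls in knockdown against starved cells, but in knockdown against fed cells 1 of 5 rises (RRP12) and 0 of 6 falls. TPM scaling gave 20 list genes higher in starved cells and 2 higher in knockdown than in fed cells, with 1402 and 635 of all tested genes higher in these comparisons; it moved the median of all tested genes in starved against fed cells to -0.07, beside 0.03. On log2(FPKM + 1) the calls over all genes in that comparison were 1684 higher and 2893 lower. A stricter filter at 5 FPKM, which tests fewer genes, left 1290 genes lower in starved than in fed cells and 1426 higher in knockdown than in starved cells. In knockdown against fed cells 10 list genes were lower with quantile scaling and 2 with limma without trend. Over all tested genes these counts were 1100 and 940. The causes were not tested. edgeR on recovered reads, run without starved replicate 1, called 26 list genes higher and 5 lower on starvation. It called 6 and 26 in knockdown against starved cells, and 5 and 4 against fed cells. Of 11052 tested genes it called 1765 and 2091, 2114 and 1911, and 965 and 961 in these comparisons. Limma without the same library called 27 list genes higher and 5 lower on starvation, and 6 and 28 in knockdown against starved cells.

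Leaving out 1 library at a time gave 23 to 32 list genes higher and 5 to 6 lower on starvation (all genes 1771 to 2271 and 1887 to 2346), 6 to 7 higher and 27 to 37 lower in knockdown against starved cells (2020 to 2623 and 2024 to 2939), and 1 to 5 higher and 0 to 10 lower in knockdown against fed cells (453 to 1208 and 385 to 1309). In the last comparison 1 list gene was higher without fed replicate 1, 2 or 3 and 3 without knockdown replicate 2; 0, 1 and 1 were lower without fed replicates 1, 2 and 3, 3 without knockdown replicate 1 or 2 and 10 without knockdown replicate 3.

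Same-numbered libraries of different groups had correlations of deviations of -0.46 to 0.54 over 9 pairs, 3 of them over 0.1. Between starved and knockdown libraries the same-numbered pairs gave 0.07, 0.54 and 0.30, and differently numbered pairs -0.38 to 0.18. Fed replicate 3 correlated with starved replicate 2 (0.54) and knockdown replicate 2 (0.45). Whether the numbers mark paired samples is not settled by these values, and the main fit used no pairing. A replicate block called 36 list genes higher and 6 lower on starvation. It called 6 and 33 in knockdown against starved cells, and 5 and 8 in knockdown against fed cells. Over all tested genes the counts were 2462 and 2425, 2521 and 2739, and 1046 and 1126. Fits planned for raw counts alone (DESeq2) were not run. Within the list of 60 genes depth limits mainly NOP2 and PPAN, whose counts were low.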
